A study of Mus musculus with 2 samples.

Results

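The genes analysed here are the components of hedgehog and parathyroid hormone-related protein (PTHrP) signaling, which together set the pace of the growth plate. They were taken from the deposited expression table by symbol, and all 9 (*Ihh*, *Ptch1*, *Smo*, *Sufu*, *Gli1*, *Gli2*, *Gli3*, *Pthlh* and *Pth1r*) were found among its 22156 rows. Each library was made from primary chondrocytes, which are cartilage cells, kept as a monolayer and taken from newborn C57BL/6J mice. The labels name rib cartilage as the tissue, and the study's methods describe isolation from rib and articular cartilage. The 1 library of the *Myl3*-KO group came from *Col2a1-Cre; Myl3*-flox/flox mice, in which the promoter of the type II collagen gene drives the recombinase. The 1 control library came from animals with the genotype label WT, and the study describes floxed littermates without the recombinase as its controls. How many animals were pooled, their sex and the passage of the culture were not given in the sources used here.

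Indian hedgehog, encoded by *Ihh*, is secreted by prehypertrophic chondrocytes. It binds the receptor PTCH1, which relieves the inhibition of SMO and lets the GLI transcription factors escape from SUFU and from cleavage into repressors. In the growth plate it also raises PTHrP, the product of *Pthlh*, near the joint surface. PTHrP acts on its receptor PTH1R and keeps chondrocytes dividing and away from hypertrophy, which closes a feedback loop between both signals.

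Expected counts summed to 17612435 for the control and 13477977 for *Myl3*-KO. Levels are given as CPM, a gene's counts scaled by the total of its library, and 3 counts, taken here as the floor, equal 0.170 and 0.223 CPM. Because there was 1 library per genotype, none of the differences has a replicate check. The intervals and floors cover counting error only, and the exact tests on reads compare these libraries, not the genotypes. Of the 10 chondrocyte markers listed, 9 were found and 2 were tested, and their summed level was 8.74 and 9.65 CPM. *Acan*, *Matn1*, *Matn3* and *Hapln1* were at 0 counts in both libraries. *Col11a1* had 121 and 99 counts, and *Col2a1*, whose promoter drives the recombinase, had 30 and 27. Neither of these passed the test on reads. *Myl3* had 0 counts in both libraries and therefore could not check the labels. Of the 9 fibroblast and perichondrium markers, 8 were tested, and *Thy1* was at 0 in both libraries. Their summed level in CPM was 16862 for the control and 19177 for *Myl3*-KO, of which *Col1a2* alone gave 12017 and 14039. Of the 8 tested, 4 had more reads in *Myl3*-KO (*Pdgfra*, log2 ratio 0.61, *Prrx1*, 0.23, *Col1a2*, 0.22, and *Col1a1*, 0.15). Another 3 had fewer (*Dcn*, -1.64, *Lum*, -1.36, and *Postn*, -0.08). For comparison, the same test gave more reads for 18.6% of all genes tested and fewer for 16.8%. Calls also depend on depth, and the share with more reads was 24.0% where a gene's counts summed to 1000 or more. The part of fibroblast and perichondrium markers in the results below was not tested. In bulk RNA, fewer cells of a type and less RNA per cell cannot be told apart.

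Promoter sequences are shown for an abundant gene (*Ptch1*), a barely counted one (*Ihh*) and the gene beside *Myl3* (*Pth1r*), because CpG dinucleotides in a promoter are a common mark of broadly expressed genes. Each window runs from 250 bases before the RefSeq start to 50 bases after it (GRCm38.p6), on the minus strand, with CG dinucleotides in capitals. The *Ptch1* window is chr13:63565686-63565985, the *Ihh* window chr1:74951623-74951922, and the *Pth1r* windows, the outermost and the innermost of 3 starts, are chr9:110747096-110747395 and chr9:110742561-110742860.
Ptch1: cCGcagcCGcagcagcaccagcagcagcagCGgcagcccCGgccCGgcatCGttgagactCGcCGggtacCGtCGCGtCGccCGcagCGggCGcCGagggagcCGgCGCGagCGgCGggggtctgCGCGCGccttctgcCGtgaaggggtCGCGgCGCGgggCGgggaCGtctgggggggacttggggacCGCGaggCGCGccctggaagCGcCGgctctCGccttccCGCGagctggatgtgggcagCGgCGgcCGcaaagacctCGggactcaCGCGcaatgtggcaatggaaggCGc
Ihh: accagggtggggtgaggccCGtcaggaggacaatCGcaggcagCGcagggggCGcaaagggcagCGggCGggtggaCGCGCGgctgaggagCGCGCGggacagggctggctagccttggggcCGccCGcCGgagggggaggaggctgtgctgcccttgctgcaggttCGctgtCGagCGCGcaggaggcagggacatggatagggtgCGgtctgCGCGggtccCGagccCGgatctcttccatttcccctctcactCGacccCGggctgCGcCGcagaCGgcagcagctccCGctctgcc
Pth1r outermost start: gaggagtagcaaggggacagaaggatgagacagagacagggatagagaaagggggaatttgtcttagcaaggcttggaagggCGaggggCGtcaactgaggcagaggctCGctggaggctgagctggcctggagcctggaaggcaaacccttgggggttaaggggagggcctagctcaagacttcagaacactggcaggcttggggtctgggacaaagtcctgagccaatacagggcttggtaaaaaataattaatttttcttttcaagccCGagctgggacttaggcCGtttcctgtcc
Pth1r innermost start: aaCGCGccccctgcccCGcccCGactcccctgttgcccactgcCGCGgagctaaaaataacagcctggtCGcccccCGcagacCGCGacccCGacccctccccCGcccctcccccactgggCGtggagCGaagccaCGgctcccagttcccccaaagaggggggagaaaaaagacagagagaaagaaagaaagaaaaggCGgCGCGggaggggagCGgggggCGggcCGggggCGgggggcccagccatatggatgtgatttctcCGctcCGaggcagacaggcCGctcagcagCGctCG

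RefSeq windows were found for 8 of the 9 genes, 10 windows in all, and none was found for *Gli1*. The *Ptch1* window held 47 CG dinucleotides, more than 98.6% of all 32851 windows, and the *Ihh* window held 30. Of the other abundant genes described next, *Gli3* held 39, *Smo* 17 and *Sufu* 12. Of the other genes with few reads, *Pthlh* held 33 and *Gli2* 28. The 3 windows of *Pth1r*, also with few reads, held 5, 23 and 27 from the outermost start inward. Of the 10 windows, 7 had an observed to expected CG ratio of at least 0.6, against 35.8% of all windows. The richest windows, those of *Ptch1* and *Gli3*, belonged to abundant genes. The windows of *Smo* and *Sufu* held fewer than those of *Ihh*, *Pthlh* and *Gli2*, and fewer than every *Pth1r* window but the outermost. CG content therefore did not sort these genes by level. The 9-letter GLI motif GACCACCCA was searched on both strands and was in 0 of the 10 windows, and in 0.253% of all windows. With its 5th letter free (GACCNCCCA) it was again in 0 of the 10 windows, against 0.977% of all windows. At such low shares 0 of 10 windows is the usual outcome for any genes, so no conclusion is drawn from it. Bases outside the windows were not searched.

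The 9 genes fell into a group of abundant and a group of barely counted transcripts, and both libraries showed the same division. Compared per length, as FPKM values, *Smo*, *Ptch1*, *Sufu* and *Gli3* lay at 9.83 or above in both libraries, and the other 5 genes at 0.54 or below. The abundant genes are the ones that receive the hedgehog signal and pass it on. The barely counted ones are both ligands (*Ihh*, *Pthlh*), the PTHrP receptor (*Pth1r*) and the GLI factors chiefly known as activators (*Gli1*, *Gli2*), none with more than 18 counts in a library.

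**Figure D1:**
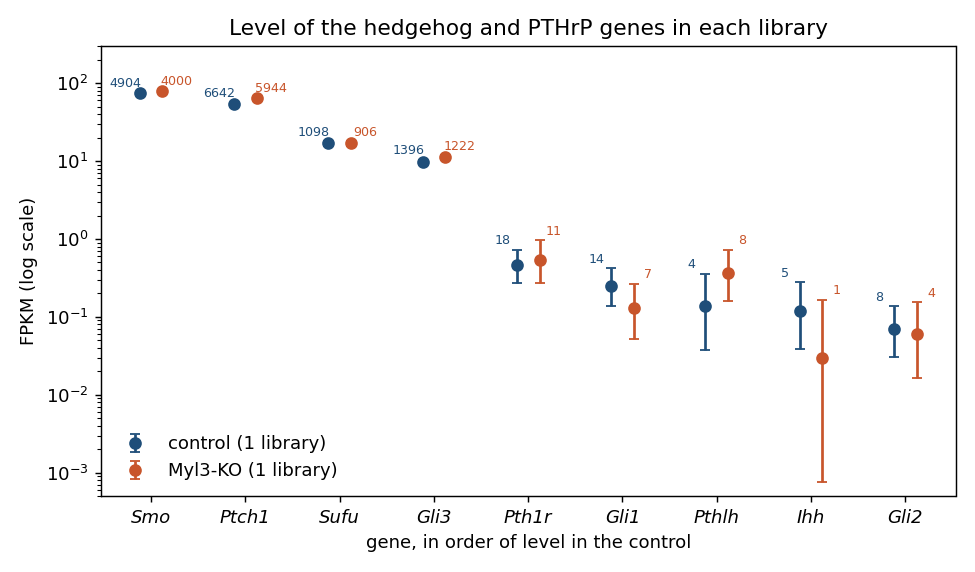
The plot shows the FPKM value (vertical axis, log scale) of each gene in the control library (blue) and the *Myl3*-KO library (orange), with 95% counting intervals and the expected counts printed above. The 4 genes on the left lie between 9.83 and 78.53 FPKM, and the 5 on the right at or below 0.54 FPKM in both libraries.

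The order of the levels per length was *Smo*, *Ptch1*, *Sufu* and *Gli3* in both libraries, and the counting intervals of these neighbours did not overlap. *Pth1r* came next, at 0.46 and 0.54 FPKM, and its interval lay below that of *Gli3*. From *Pth1r* down the intervals of all neighbours overlapped. The full order among *Pth1r*, *Gli1*, *Pthlh*, *Ihh* and *Gli2* was therefore not resolved at this depth. Some genes further apart were separated, as the interval of *Pth1r* lay above that of *Gli2* in both libraries. In *Myl3*-KO the *Pth1r* interval also lay above those of *Gli1* and *Ihh*, and the *Pthlh* interval lay above that of *Gli2*.

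Among the ligands, *Ihh* (ENSMUSG00000006538, chromosome 1 from 74945315 to 74951672 on GRCm38, GENCODE M21) was counted 5 times in the control and 1 time in *Myl3*-KO, or 0.284 CPM (95% Clopper-Pearson interval 0.0922 to 0.663) and 0.0742 CPM (0.00188 to 0.413). With 6 counts in all it was the 1 gene of the 9 that did not reach the 10 counts over both libraries required for testing. The ratio of *Myl3*-KO to control, on the log2 scale, was -1.94, with a counting interval of -7.50 to 1.22 that spans a fall and a rise. The related ligand genes *Shh* and *Dhh* had 0 counts in both libraries.

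*Ptch1* encodes the hedgehog receptor and is itself a classic target gene of the pathway. It lies on chromosome 13 from 63508328 to 63573598 (ENSMUSG00000021466). Its reads numbered 6642 for the control and 5944 for *Myl3*-KO, which is 377 CPM (368 to 386) and 441 CPM (430 to 452). These CPM intervals do not overlap, and *Ptch1* had the lowest p of the 9 genes. This is a 1.17-fold difference, a log2 ratio of 0.23 with a 95% interval of 0.18 to 0.28. The exact binomial p was 2.21e-18 and became 8.30e-17 after Benjamini-Hochberg adjustment across the 12431 genes tested. Its FPKM of 54.64 in the control and 63.98 in *Myl3*-KO exceeded that of 92.8% and 94.4% of all rows.

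*Smo* (ENSMUSG00000001761, chromosome 6 from 29735503 to 29761365) encodes the membrane protein that PTCH1 holds inactive. Reads numbered 4904 for the control and 4000 for *Myl3*-KO, giving 278 CPM (271 to 286) and 297 CPM (288 to 306). The intervals did not overlap, but the difference was small, with a log2 ratio of 0.09 (0.03 to 0.15, adjusted exact binomial p = 0.0109). This call was lost with TMM scaling (log2 ratio 0.06, adjusted exact binomial p = 0.0876) and with DESeq2 size factors (0.07, adjusted exact binomial p = 0.0708).

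SUFU binds GLI proteins and restrains them. *Sufu* (ENSMUSG00000025231, chromosome 19 from 46396896 to 46488804) gave 1098 reads from the control library and 906 from *Myl3*-KO, or 62.3 CPM (58.7 to 66.1) and 67.2 CPM (62.9 to 71.7), and these intervals overlap. The log2 ratio of 0.11 had an interval of -0.02 to 0.24 and did not pass the test (adjusted exact binomial p = 0.194). The FPKM values were nearly equal, at 16.8 and 16.89.

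The GLI family was represented almost wholly by *Gli3*, the member that acts chiefly as a repressor when hedgehog is absent. *Gli3* (ENSMUSG00000021318, chromosome 13 from 15463235 to 15730026) gave 1396 reads from the control library and 1222 from *Myl3*-KO, 79.3 CPM (75.2 to 83.5) and 90.7 CPM (85.7 to 95.9). The log2 ratio was 0.19 (0.08 to 0.31, adjusted exact binomial p = 0.00304). *Gli1*, which encodes an activator and is the usual readout of the pathway (ENSMUSG00000025407, chromosome 10 from 127329882 to 127341974), had 14 and 7 counts, and *Gli2* (ENSMUSG00000048402, chromosome 1 from 118834132 to 119053619) had 8 and 4. Both gave a log2 ratio of -0.61, but the intervals of -2.16 to 0.79 for *Gli1* and -2.80 to 1.29 for *Gli2* include 0, and neither passed the test (adjusted exact binomial p = 0.556 and 0.719). *Gli3* took 98.4% of the reads of the family in the control (95% Clopper-Pearson interval 97.7 to 99.0) and 99.1% in *Myl3*-KO (98.4 to 99.6). These shares are of reads, which also grow with transcript length, and they did not differ beyond counting error (two-sided Fisher's exact test p = 0.160). Per length, *Gli3* was at 9.83 and 11.32 FPKM against 0.25 and 0.13 FPKM for *Gli1*.

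In the PTHrP arm, *Pthlh* (ENSMUSG00000048776, chromosome 6 from 147252101 to 147264183) was counted 4 times in the control and 8 times in *Myl3*-KO, 0.227 CPM (0.0619 to 0.581) and 0.594 CPM (0.256 to 1.17). The log2 ratio of 1.39 was beyond 2-fold, but its interval of -0.51 to 3.57 includes 0 and the reads did not pass the test (adjusted exact binomial p = 0.267). *Pth1r* (ENSMUSG00000032492, chromosome 9 from 110722085 to 110747145), which encodes the receptor for PTHrP and parathyroid hormone, had 18 and 11 counts, 1.02 CPM (0.606 to 1.62) and 0.816 CPM (0.407 to 1.46). The log2 ratio was -0.32, with an interval of -1.55 to 0.84 (adjusted exact binomial p = 0.728). The deposited FPKM values of *Pth1r* went the other way, from 0.46 to 0.54 (log2 ratio 0.23), so no direction can be given for this gene. The other hormone and receptor genes of the family, *Pth*, *Pth2* and *Pth2r*, had at most 2 counts in a library.

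**Figure D2:**
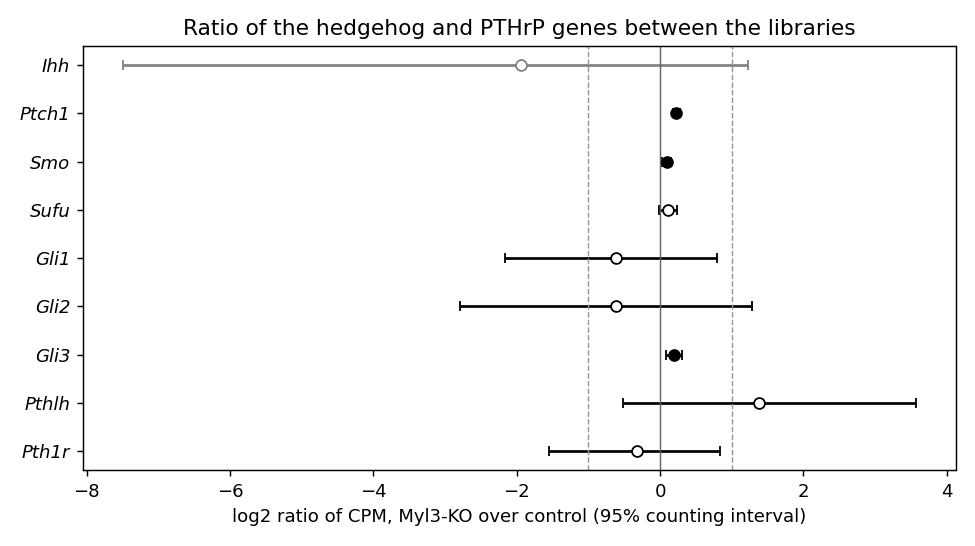
Each point is the log2 ratio of CPM, *Myl3*-KO over control (horizontal axis), of 1 gene with its 95% counting interval, filled where the adjusted exact binomial p was under 0.05 and grey for the untested *Ihh*. Dashed lines mark 2-fold. The intervals of *Ptch1*, *Smo*, *Sufu* and *Gli3* are narrow and lie within 2-fold, and those of the other 5 genes include 0.

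Counted together, 3 of the 8 genes tested had more reads in the *Myl3*-KO library (*Ptch1*, *Smo* and *Gli3*) and 0 had fewer. Over all genes tested, 18.6% had more reads and 16.8% fewer by the same rule (1940 and 2473 genes with TMM factors, against 2307 and 2090), and among genes whose counts summed to 1000 or more 24.0% had more. Beyond 2-fold, 1 of the 8 was higher (*Pthlh*) and 0 were lower, against 2.16% and 1.19% of all genes tested. That share depended strongly on depth, since 24.4% of the genes with 10 to 49 counts over both libraries, the range of *Pthlh*, lay beyond 2-fold in either direction, and 0.047% of those with at least 1000. The median log2 ratio of the 8 genes was 0.10, beside 0.02 for all genes tested. The reads test includes no variation between cultures. In the exact test of edgeR, at a preset coefficient of variation of 0.1, 0 of the 8 genes passed an unadjusted p of 0.05, and the adjusted p of *Ptch1* was 0.977.

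**Figure D3:**
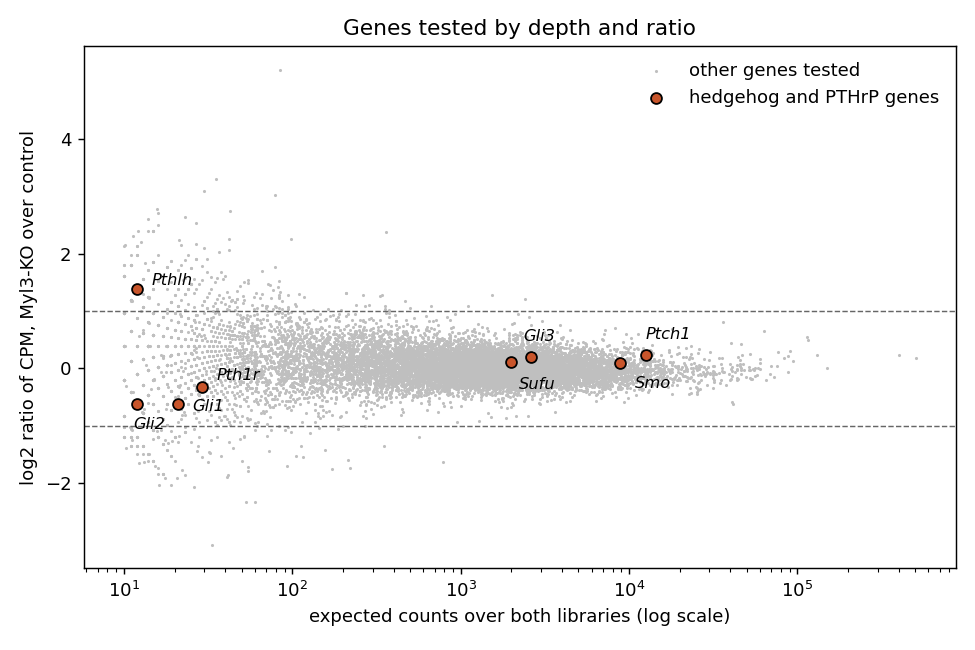
Each grey point is 1 of the genes tested, by its expected counts over both libraries (horizontal axis, log scale) and its log2 ratio of CPM, *Myl3*-KO over control (vertical axis), with the hedgehog and PTHrP genes in orange and dashed lines at 2-fold. *Pthlh*, *Gli1*, *Gli2* and *Pth1r* lie at the low counts where ratios spread most, and *Ptch1*, *Smo*, *Sufu* and *Gli3* at high counts close to 0.

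Ratios between genes within a library do not depend on how the libraries are scaled. Across the 6 pairs of the abundant genes, only the ratio of *Ptch1* to *Smo* reads differed beyond counting error, at 1.35 in the control and 1.49 in *Myl3*-KO. This is a log2 change of 0.13 (95% interval 0.06 to 0.21, two-sided Fisher's exact test adjusted over the 6 pairs p = 0.00516). *Ptch1* to *Gli3* stood at 4.76 and 4.86, with a log2 change of 0.03 (-0.09 to 0.15). The other 4 pairs had adjusted Fisher's exact p values of 0.236 to 0.823. Of these, *Ptch1* to *Sufu* had a log2 change of 0.12 (-0.02 to 0.25), close in size to that of *Ptch1* to *Smo*. The log2 changes of the rest were -0.10 (*Smo* to *Gli3*), -0.09 (*Sufu* to *Gli3*) and -0.02 (*Smo* to *Sufu*).

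The *Pth1r* locus lies beside the deleted gene. In GENCODE M21 the span of *Myl3* on the plus strand (chromosome 9 from 110741861 to 110769798) overlaps that of *Pth1r* on the minus strand over 5285 bases, of which 95 are exonic in both. All 3 RefSeq starts of *Pth1r*, including the windows printed above, fall within this *Myl3* span. The overlap comes from 1 of the 5 annotated *Myl3* transcripts, and the next one starts 16501 bases from the outermost *Pth1r* start. As *Myl3* had 0 counts in both libraries, no reads were assigned to it. Which bases the floxed allele removes was not given in the sources used here. *Pth1r* was not distinguishable between the libraries, and without it the median log2 ratio of the remaining 7 genes tested was 0.11.

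**Figure D4:**
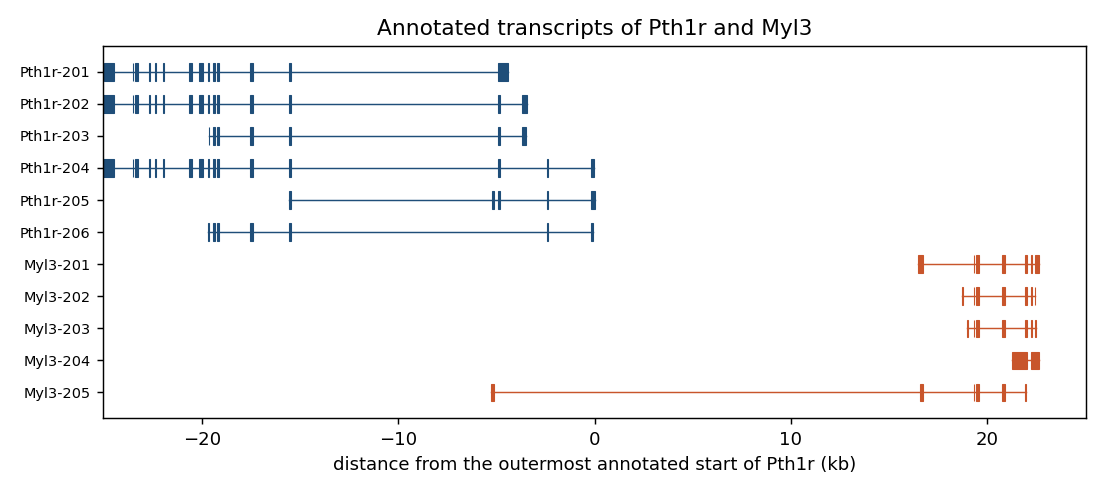
Exons (boxes) and introns (lines) of the annotated transcripts of *Pth1r* (blue, read from right to left) and *Myl3* (orange, read from left to right) are drawn by their distance in kb from the outermost start of *Pth1r*. 1 *Myl3* transcript reaches into *Pth1r*, and the other 4 start at least 16501 bases away.

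*Gli1* also overlaps another counted gene, *Arhgap9*, by 62 bases on the opposite strand, which had 0 and 2 counts. The antisense gene *Gm47200* overlaps the span of *Gli1* by 9584 bases and has no row in the deposited expression table. Other overlapping genes without a row are *Mir6346* (*Gli2*), *Gm13717* (*Smo*), *Gm6556* and *Gm48343* (*Gli3*) and *A930032L01Rik* (*Ptch1*). The counting setting for strand was not given, so reads of overlapping genes could not be separated.

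The wider pathway was then examined with lists of 99 other genes of hedgehog, PTHrP and growth plate signaling, of which 98 were found and 78 tested. Of these 18 had more reads in *Myl3*-KO, 9 had fewer and 51 did not pass, with a median log2 ratio of 0.04. Over all genes tested, 18.6% had more reads and 16.8% fewer, with a median log2 ratio of 0.02. These shares are the background for the counts of each list that follows. The division into 18 and 9 depended on scaling, since TMM factors and DESeq2 size factors gave 13 and 13. With TMM factors, 1940 of the 12431 genes tested had more reads and 2473 fewer. Beyond 2-fold, 1 of the 78 was higher and 0 were lower, against 2.16% and 1.19% of all genes tested.

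Among the co-receptors, *Gas1*, *Cdon* and *Boc* were well above the ligands in reads, and *Gpc3* had 0 counts in both libraries. *Gas1*, a membrane co-receptor that helps cells respond to hedgehog, had 25861 and 17696 counts, the highest level per length of this list at 495.89 and 443.42 FPKM, and fell by 0.16 on the log2 scale (interval -0.19 to -0.13, adjusted exact binomial p = 1.13e-28). *Gas1* was the 1 of the 4 receptor and co-receptor genes tested that passed, and with TMM or DESeq2 scaling *Cdon* passed as well, as lower (log2 ratio -0.10 and -0.09). *Hhip*, which encodes a membrane protein that binds and sequesters the ligand and is also a hedgehog target, had 0 counts in both libraries. *Disp1*, needed for ligand release, had 635 and 497 counts (log2 ratio 0.03, but -0.17 from the FPKM values).

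Of the 10 tested genes that act on SMO, 5 had more reads and 1 had fewer, or 3 and 2 with TMM or DESeq2 scaling, where *Csnk1a1* passed as lower. The highest ratio was that of *Iqce*, part of the ciliary EVC complex (853 and 783 counts, log2 ratio 0.26, interval 0.12 to 0.40), and *Csnk1d*, a casein kinase, rose by 0.15 (4802 and 4066 counts). *Evc* rose by 0.21 as well, whereas *Evc2* and *Gpr161* no longer passed under either other scaling (adjusted exact binomial p = 0.0831 and 0.0666 with TMM factors). The arrestin gene *Arrb1* fell by 0.56 on the log2 scale (interval -0.83 to -0.29), with 339 and 176 counts.

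Among 12 genes of GLI phosphorylation and degradation, 1 had more reads and 2 had fewer, or 1 and 4 with either other scaling, where *Cul1* and *Prkaca* joined those with fewer. *Cul3*, a ubiquitin ligase scaffold, fell by 0.14 (3165 and 2199 counts) and the kinase gene *Gsk3a* by 0.19 (1011 and 678 counts). The kinase gene *Stk36* had 238 and 255 counts (log2 ratio 0.49), but its FPKM went from 3.96 to 3.84. Of 10 genes of transport in the primary cilium, where the pathway operates, 3 had more reads and 1 had fewer, or 2 and 1 with either other scaling. *Ift122* (log2 ratio 0.42, interval 0.26 to 0.58) and *Ift172* (0.40, interval 0.25 to 0.56), which belong to the intraflagellar transport machinery, rose, and *Ift80* of the same machinery fell by 0.17.

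Among listed hedgehog target genes, 7 of 12 were tested and *Ccnd1* alone passed. *Ccnd1*, a cyclin gene with many other inputs, had 136.14 and 221.72 counts and rose by 1.09 on the log2 scale (interval 0.78 to 1.41, adjusted exact binomial p = 3.36e-11), and it was the gene beyond 2-fold. *Foxf1* had 216 and 156 counts (log2 ratio -0.08) and *Foxf2* 174 and 131 (-0.02). The remaining tested targets had few reads. *Ccnd2* had 27 and 35 counts (0.76), *Sfrp1* 18 and 19 (0.46), *Foxc2* 8 and 7 (0.19) and *Bcl2* 19 and 13 (-0.16). *Mycn* had 0 counts in both libraries. In the KEGG pathway column of the table, 43 genes carried hedgehog signaling, 7 of them among the 9 genes above. Of the 32 others tested, 7 had more reads and 4 had fewer, but 5 and 8 with either other scaling, and the median log2 ratio was 0.04. *Ccnd1* and *Grk3* lay beyond 2-fold among these, and *Grk3*, named after its values were seen, had 4 and 8 counts.

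**Figure D5:**
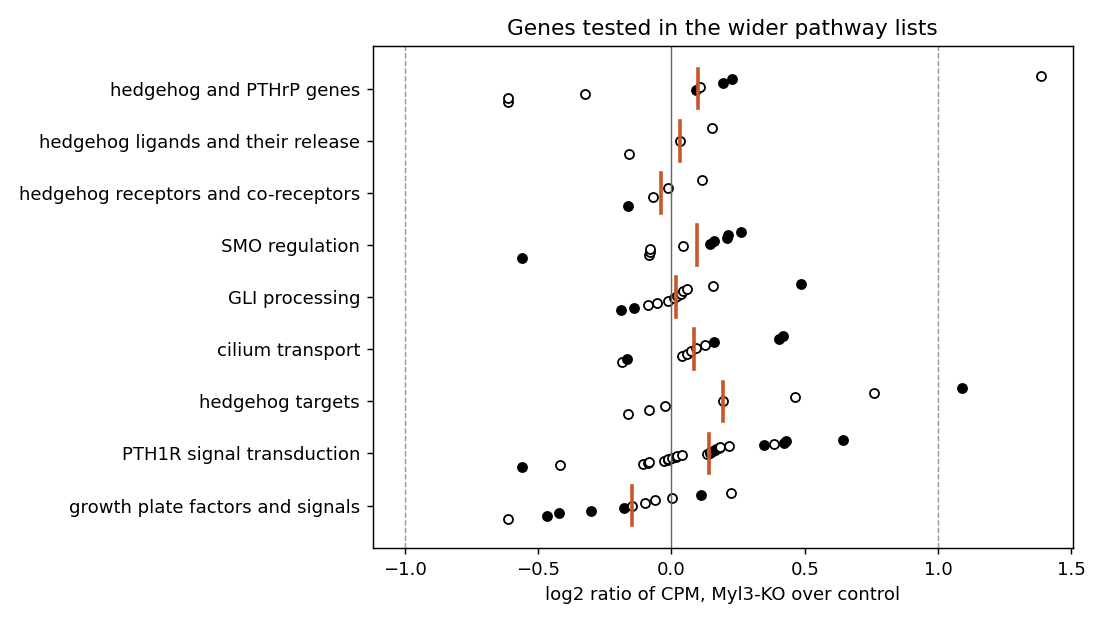
Each point is the log2 ratio of CPM, *Myl3*-KO over control (horizontal axis), of 1 tested gene in the list named on the left, filled where the adjusted exact binomial p was under 0.05, with the list median as an orange bar and dashed lines at 2-fold. List medians lie between -0.15 for growth plate factors and signals and 0.19 for hedgehog targets, and genes can stand in more than 1 list.

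Downstream of PTH1R, 7 of 26 tested genes had more reads and 1, *Arrb1*, had fewer, or 6 and 2 with either other scaling, where *Prkaca* also passed as lower. The adenylyl cyclase gene *Adcy7* had 537 and 642 counts and rose by 0.64 on the log2 scale (interval 0.48 to 0.81), and *Hdac5*, a class II histone deacetylase gene, rose by 0.43 (1644 and 1695 counts, interval 0.33 to 0.53). *Gnas*, which encodes the stimulatory G protein that PTH1R couples to, had 14661 and 11371 counts and a log2 ratio of 0.02 (-0.02 to 0.05). *Hdac4*, through which PTHrP restrains MEF2 factors, had 248 and 210 counts (0.15, interval -0.13 to 0.42), and *Mef2c* 227 and 174 (0.00, interval -0.29 to 0.29). Their FPKM values gave other ratios, -0.13 for *Hdac4* and 0.35 for *Mef2c*.

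Of the 11 tested growth plate factors and signals, 4 had fewer reads (*Sox9*, *Runx3*, *Vegfa* and *Bmpr1a*) and 1 had more (*Runx2*). *Sox9*, the master factor of the chondrocyte lineage, fell by 0.47 on the log2 scale (interval -0.63 to -0.30, adjusted exact binomial p = 1.27e-07). *Bmpr1a*, which encodes a BMP receptor, fell by 0.18 (3785 and 2562 counts). *Runx2*, a factor of hypertrophy and bone formation, had 2952 and 2443 counts and a log2 ratio of 0.11, which did not pass with TMM scaling (adjusted exact binomial p = 0.0770). The hypertrophic marker *Col10a1* had 1 and 5 counts and was not tested. Of the 6 hypertrophic markers, 2 were tested. *Spp1* had more reads (207 and 247 counts, log2 ratio 0.64) and *Alpl* fewer (46 and 7 counts, log2 ratio -2.33). The summed level of the list was 14.6 and 19.6 CPM, of which *Spp1* alone gave 11.8 and 18.3 CPM. Of the osteoblast markers 1 of 2 tested had fewer reads, *Phex*. The summed level of the osteoblast list was 74.9 and 59.9 CPM, of which *Phex* alone gave 66.8 and 52.2 CPM. Muscle markers summed to 0.341 and 0.223 CPM, immune markers to 2.22 and 2.45 CPM and endothelial markers to 0.397 and 0.890 CPM, and 0 of the 3 immune markers and 0 of the 1 endothelial marker tested passed, while 0 muscle markers had enough counts to be tested. Whether any of these cells had a part in the results was not tested.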

How the data were processed

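RNA sequencing of 1 control and 1 *Myl3*-KO library was analysed. The authors deposited expected counts per gene, estimated reads without normalization, and FPKM values, scaled by length and library. The submitters' processing notes name the builds GRCm38 and mm10, and the aligner, counter and strand setting are not given in the sources used here. The column headed NC was read as control because the other is headed KO. Library totals scaled the counts to CPM, and log2 ratios were taken with counts under 3 raised to 3. An exact binomial test, two-sided, set each gene's rounded counts against the split expected from the library totals, with Benjamini-Hochberg adjustment over the 12431 genes whose counts summed to 10 or more. This call rule was an adjusted p under 0.05. The rule was tested on simulated data. These held counting error only, with no variation between cultures. For *Ihh* the ratio is of the counts as they are.

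The quasi-likelihood test of edgeR and DESeq2's test were not run, since single libraries leave no residual degrees of freedom. Alternatives were TMM factors, DESeq2 size factors, other count filters, 1 added count, the FPKM ratio, other fold limits, and the exact test of edgeR at preset coefficients of variation. Named genes are the 9 genes, listed genes beyond 2-fold, the 2 with the lowest p in each direction per list, markers, and genes that overlap the 9. Other listed genes, named for their role or to complete a list, were chosen after their values were seen. The genes, lists and tests were chosen with earlier results of these data known. Positions are from GENCODE M21 (21881 of 21910 identifiers found) and promoters from RefSeq. Tools were Python 3.11.15, scipy 1.17.1, R 4.3.3, edgeR 4.0.16 and DESeq2 1.42.0.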

Additional observations from a re-analysis of the deposited data

How the results depend on the processing

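The number of the 9 genes beyond 2-fold was 1 and stayed at 1 with TMM factors, DESeq2 size factors, no count filter, 1 added count, the FPKM ratio and without *Pth1r*, the last chosen after seeing the data. Without a filter *Ihh* entered with its 1 count raised to 3 (log2 ratio -0.35). The ratio of its counts as they are, -1.94, lies beyond 2-fold and was not counted. When each library had to hold 10 counts it was 0, as *Pthlh* was no longer tested, 3 with a limit of 1.5-fold (*Pthlh* higher, *Gli1* and *Gli2* lower) and 0 with a limit of 4-fold. Of the wider pathway genes, 1 lay beyond 2-fold, 4 beyond 1.5-fold and 0 beyond 4-fold. The number with differing reads was 3, and 2 (*Ptch1* and *Gli3*) with TMM or DESeq2 scaling. With a preset coefficient of variation it was 0 at 0.1, 0 at 0.2 and 0 at 0.4 for the 8 genes tested. For the wider pathway it was 1 (*Ccnd1*), 0 and 0, against 27 with counting error alone. At these values 61, 4 and 1 of all genes tested passed, and 0 of the 8 genes had an unadjusted p under 0.05 in edgeR's exact test. The wider pathway had 26 or 27 genes with differing reads under the other alternatives. FPKM values gave no test on reads. The median log2 ratio, over those of the 9 genes that each setting tested, lay between 0.07 and 0.15. The scalings moved the median of all genes by at most 0.03. The FPKM ratio of *Pth1r* (0.23) had the opposite sign to its CPM ratio (-0.32), and the cause was not tested. Leaving out a replicate was not possible with 1 library per genotype. No paired analysis was possible because each group had 1 library.

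Depth limits the genes with few reads: with at most 18 counts in a library, the intervals of *Ihh*, *Gli1*, *Gli2*, *Pthlh* and *Pth1r* spanned both directions. Changes within these intervals were not detectable at this depth.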

Other observations

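The FPKM and CPM ratios of a gene differed by more than 0.5 on the log2 scale, relative to the median gene, for 82 of the 11389 genes tested with at least 0.4 FPKM in both libraries (0.720%). *Pth1r*, with a difference of 0.56, was among them, and *Ptch1*, *Smo* and *Gli3* differed by at most 0.01.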
